A study of Mus musculus with 16 samples.

Results

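The 37 genes described here are interferon-stimulated genes, named from a list of mouse symbols typical of the response to type I interferon and looked up by Ensembl identifier among the 53647 genes of the deposited table. All 37 were found, and all 37 passed the filter of at least 1 TPM in at least 4 libraries, as did 17003 genes in all. The RNA came from mouse lung in 4 groups of 4 libraries each. Ad-ATP12A lungs came from bleomycin-treated mice that also received an adenoviral vector named for ATP12A, a catalytic pump subunit that exchanges protons for potassium in tissues other than the stomach. Ad-GFP lungs came from bleomycin-treated mice that received an adenoviral vector named for GFP, a fluorescent protein used as a control cargo. Bleomycin lungs came from mice given bleomycin, a chemotherapy agent whose lung toxicity serves as a mouse model of fibrosis, without a vector. Control lungs were labelled as controls, with neither bleomycin nor a vector named. Bleomycin was thus common to all but the control group, and no group had a vector without bleomycin. Each group held 2 libraries from each of 2 batches, and b1r2 below means batch 1, replicate 2. The labels name no strain, sex, age, dose, route, day of collection or promoter of the vectors, and they do not say that replicates were separate animals, so p-values measure the spread between libraries.

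Type I interferons are secreted proteins that bind the receptor made of IFNAR1 and IFNAR2 on nearly all cell types. The receptor's kinases phosphorylate STAT2, which works with IRF9 in a complex that binds the interferon-stimulated response element in the promoters of target genes. The target genes encode sensors of foreign nucleic acid, enzymes that degrade RNA or block translation, proteins that trap viral particles, and factors that amplify or restrain the signal.

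A short sequence, GAAANNGAAA (N is any base), is the core of the interferon-stimulated response element, and it was searched on both strands in RefSeq promoters of build GRCm38.p6 that run from 250 bases before to 50 bases after the start site. Promoters were found for 25 of the 37 genes, and 13 of the 25 held at least 1 match, against 3.99% of the 27025 genes with a promoter. The reads themselves had been aligned to the later build GRCm39, per the submitters' processing notes, so these positions are those of the promoter table. The match is a property of letters and does not show that a factor was bound in these lungs. The windows below, each of 100 bases, carry the matches in capitals and are read 5′ to 3′ on the strand of the gene; TTTCNNTTTC is the same motif read from the other strand. They are shown because they put 5 genes that passed every comparison with control lungs, described below, beside 3 genes with the same motif that passed none.
Isg15: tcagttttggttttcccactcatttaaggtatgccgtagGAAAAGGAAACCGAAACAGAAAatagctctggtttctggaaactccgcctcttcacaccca
Oas1a: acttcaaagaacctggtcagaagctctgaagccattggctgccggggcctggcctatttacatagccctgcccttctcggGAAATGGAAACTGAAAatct
Oas3: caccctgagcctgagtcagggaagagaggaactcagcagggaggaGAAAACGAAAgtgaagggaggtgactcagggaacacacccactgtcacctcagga
Bst2: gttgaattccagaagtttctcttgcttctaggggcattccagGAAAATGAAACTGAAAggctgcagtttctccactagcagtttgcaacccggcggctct
Ifit1: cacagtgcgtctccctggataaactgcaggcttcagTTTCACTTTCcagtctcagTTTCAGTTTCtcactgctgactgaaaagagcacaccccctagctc
Ifit3: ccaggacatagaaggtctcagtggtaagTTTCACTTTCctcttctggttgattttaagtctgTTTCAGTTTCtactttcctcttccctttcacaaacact
Ifit3b: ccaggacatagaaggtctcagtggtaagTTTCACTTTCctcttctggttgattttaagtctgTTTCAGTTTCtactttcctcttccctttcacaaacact
Ddx60: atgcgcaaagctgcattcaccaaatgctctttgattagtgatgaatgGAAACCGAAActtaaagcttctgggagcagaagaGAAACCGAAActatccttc
The Isg15 window lay at chr4:156200836-156200935 on the minus strand, where 3 overlapping matches began 66 to 78 bases before the start site. Oas1a (chr5:120907526-120907625, minus strand) held 2 overlapping matches 14 and 20 bases before its start site, Oas3 (chr5:120777680-120777779, minus strand) held 1 match at 75 bases, and Bst2 (chr8:71537545-71537644, minus strand) held 2 overlapping matches at 124 and 130 bases. Ifit1 (chr19:34640749-34640848, plus strand) held 2 separate matches at 85 and 104 bases. The windows of Ifit3 (chr19:34583345-34583444, plus strand) and its neighbour Ifit3b (chr19:34607741-34607840, plus strand) were identical, with 0 mismatches over 100 bases and 2 matches each. Ddx60 (chr8:61927987-61928086, plus strand) held 2 separate matches at 19 and 53 bases.

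Isg15, Oas1a, Oas3, Bst2 and Ifit1 passed the test against control lungs in all 3 comparisons, whereas Ifit3, Ifit3b and Ddx60 passed in none. Of the 13 genes with a promoter that passed in at least 1 comparison, 6 held the element core, and of the 12 that passed in none, 7 did. The core of the gamma-activated sequence, TTCNNNGAA, which reads the same on both strands and is known from genes induced by interferon gamma, was held by 5 of the 25, against 9.55% of all genes with a promoter. It was held by 2 of the 13 genes that passed and by 3 of the 12 that did not.

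The unit was TPM, a transcript abundance that corrects for transcript length and for library size, so the read depth behind each value is unknown. Per gene, values were analysed as log2(TPM + 1). Between 15537 and 16336 genes reached 1 TPM in a library. Atp12a, the gene the vector is named for, measured 5.13, 2.96, 29.02 and 25.70 TPM in the Ad-ATP12A libraries b1r1, b1r2, b2r1 and b2r2 and at most 0.20 TPM in any other library, and libraries of a group are listed in this order throughout. Scgb1a1, the main secretory protein of airway club cells, which was chosen after values were seen, lay under 1000 TPM in 3 libraries, Ad-GFP b1r1, bleomycin b2r2 and control b2r1, and no Ad-ATP12A library was among them. One library stood apart within each vector group for the 37 genes: Ad-ATP12A b1r1 held the group's highest value for 33 of them, and Ad-GFP b2r2 for 31. For all genes tested those shares were 22% and 35.1%. Fitted medians over the 37 genes, and fold changes whose call these libraries end, are given with and without them. The count of genes that passed is given without Ad-GFP b2r2, and without Ad-ATP12A b1r1 only as part of a range. Counts at an unadjusted p, and counts of genes that did not overlap the controls, are given with all libraries only.

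Interferon-stimulated genes were higher in all 3 bleomycin-treated groups than in control lungs. The mean of the 37 genes was 4.92 ± 0.34 in Ad-ATP12A, 4.70 ± 0.39 in Ad-GFP, 4.75 ± 0.14 in bleomycin and 4.04 ± 0.21 in control lungs, on the log2(TPM + 1) scale (SD, n = 4 each). Per library the mean was 5.39, 4.84, 4.88 and 4.58 in Ad-ATP12A, 4.71, 4.43, 4.42 and 5.25 in Ad-GFP, 4.75, 4.67, 4.64 and 4.94 in bleomycin, and 4.17, 3.82, 4.25 and 3.91 in control libraries. All 12 bleomycin-treated libraries lay above all 4 control libraries, and the 3 bleomycin-treated groups overlapped. Summed over the 37 genes, the level was 1383 to 2521 TPM in Ad-ATP12A, 1286 to 2079 TPM in Ad-GFP, 1462 to 1675 TPM in bleomycin and 857 to 1124 TPM in control libraries. In lung tissue of mixed cells, more cells of a type that expresses these genes and more RNA per cell cannot be told apart.

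**Figure D1:**
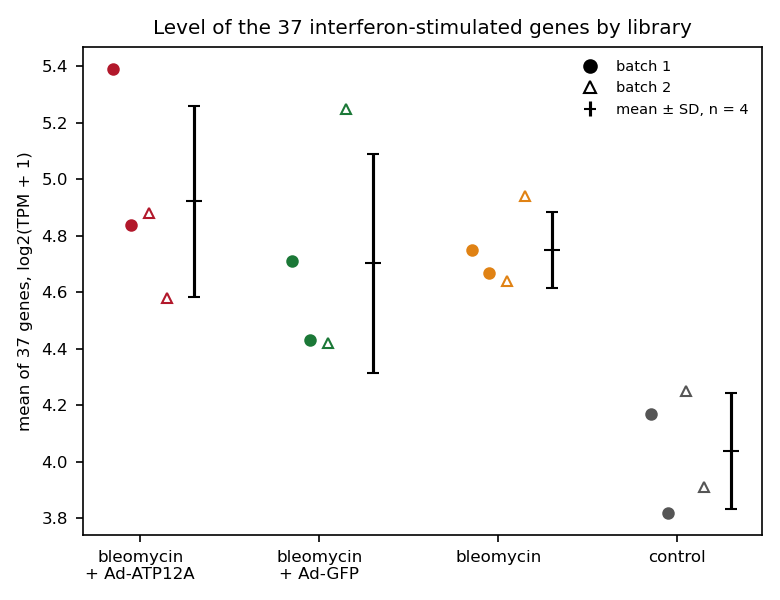
Mean of the 37 genes in each library on the log2(TPM + 1) scale (y axis, which does not start at 0), by group; circles are batch 1, triangles batch 2, and bars give mean ± SD over 4 libraries. The highest library is Ad-ATP12A b1r1 at 5.39, the second highest Ad-GFP b2r2 at 5.25, and the control libraries lie between 3.82 and 4.25.

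Against control lungs, 21 of the 37 genes rose in Ad-ATP12A lungs, 12 in Ad-GFP lungs and 16 in bleomycin lungs, and none fell (limma on log2(TPM + 1) with a batch term, adjusted p under 0.05 over 17003 genes). The share of all tested genes that rose was 13.3% in Ad-ATP12A, 9.16% in Ad-GFP and 13.2% in bleomycin lungs. The fitted log2 fold change was above 0 for 35, 33 and 36 of the 37 genes in that order of groups, with medians of 0.74, 0.54 and 0.55, against medians of 0.00, 0.03 and 0.05 over all genes tested. At an unadjusted p under 0.05, 27, 22 and 25 of the 37 genes were higher and none was lower, against 20.6%, 18.3% and 21.4% of all genes tested. Every library of the group exceeded every control library for 22 genes in Ad-ATP12A, 15 in Ad-GFP and 20 in bleomycin lungs, and for 14%, 10.8% and 16.5% of all genes tested. The 3 comparisons share their 4 control libraries, so they are not independent of one another.

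In all 3 comparisons 11 genes passed: Isg15, Ifit1, Mx1, Oas1a, Oas2, Oas3, Oasl2, Bst2, Zbp1, Ifi204 and Lgals3bp. Mx2, Oasl1, Irf7, Ifi27l2a and Xaf1 passed in 2 comparisons, and Irf9, Stat2, Usp18, Ifi44, Parp9 and Rtp4 in 1. The other 15 passed in none: Ifit2, Ifit3, Ifit3b, Rsad2, Ifih1, Dhx58, Ifi35, Ifi27, Herc6, Parp14, Cmpk2, Trim30a, Eif2ak2, Samd9l and Ddx60. Among the 15, a p above the threshold does not show equal levels, and Ifit3 in Ad-ATP12A lungs was closest to it (log2 fold change 0.74, adjusted p = 0.0521).

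**Figure D2:**
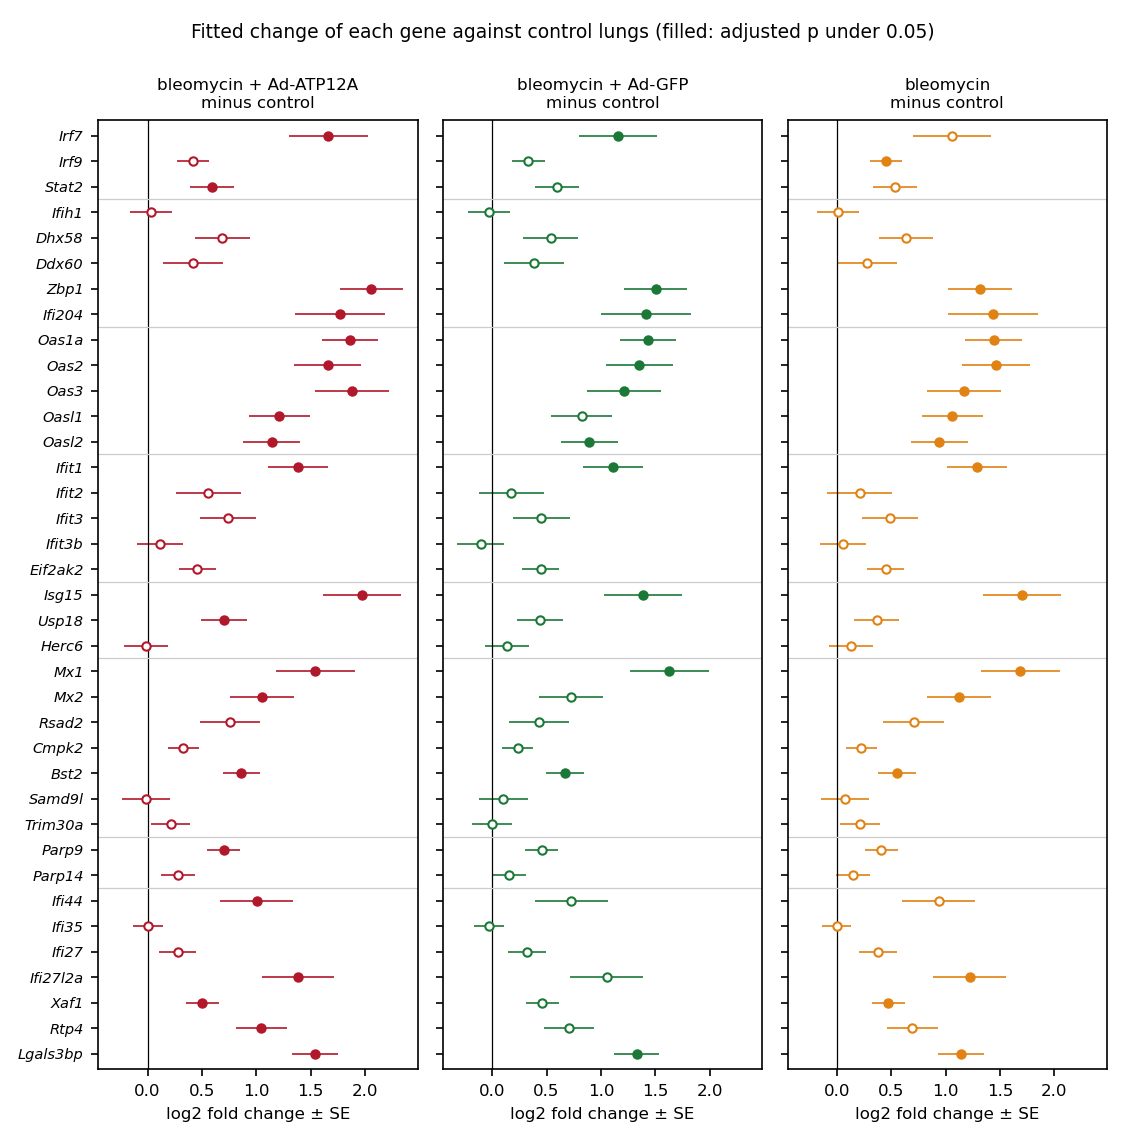
Fitted log2 fold change against control lungs for each of the 37 genes (rows, grouped by role) in Ad-ATP12A, Ad-GFP and bleomycin lungs; bars are ± 1 SE, and filled symbols passed at an adjusted p under 0.05. At a pseudocount of 1 TPM the rightmost gene is Zbp1 in Ad-ATP12A (2.06), Mx1 in Ad-GFP (1.63) and Isg15 in bleomycin lungs (1.71), while Ifih1 and Ifi35 lie within 0.03 of 0 in each.

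Of the list, 3 genes are transcription factors of the pathway: Irf7, which drives transcription of interferon genes and is itself interferon-induced, and Stat2 and Irf9, which are parts of the complex that binds the response element. Irf7 measured 86.4, 50.1, 54.5 and 31.4 TPM in Ad-ATP12A, 35.0, 26.0, 23.1 and 83.2 TPM in Ad-GFP, 37.5, 31.9, 27.3 and 40.8 TPM in bleomycin and 17.8, 12.2, 20.6 and 13.9 TPM in control libraries. All 4 libraries of each bleomycin-treated group exceeded all 4 control libraries, and the highest values were those of Ad-ATP12A b1r1 and Ad-GFP b2r2. The log2 fold change of Irf7 against control lungs was 1.66 (SE 0.36, adjusted p = 0.00628) in Ad-ATP12A lungs, 1.16 (SE 0.36, adjusted p = 0.0474) in Ad-GFP lungs and 1.06 (SE 0.36, adjusted p = 0.0545) in bleomycin lungs, so it passed in both vector groups but not in bleomycin lungs. Stat2 measured 55.9, 36.98, 34.7 and 32.5 TPM in Ad-ATP12A, 40.8, 30.4, 34.7 and 54.1 TPM in Ad-GFP, 31.7, 30.2, 41.4 and 49.6 TPM in bleomycin and 26.8, 21.1, 29.2 and 25.7 TPM in control libraries. It too lay above every control library in all 3 groups, with a log2 fold change of 0.60 (SE 0.203, adjusted p = 0.0487) in Ad-ATP12A lungs, 0.60 (SE 0.203, adjusted p = 0.0663) in Ad-GFP lungs and 0.54 (SE 0.203, adjusted p = 0.0806) in bleomycin lungs. Irf9 averaged 38.6 ± 6.69 TPM in Ad-ATP12A, 36.2 ± 5.31 TPM in Ad-GFP, 39.2 ± 4.95 TPM in bleomycin and 28.5 ± 4.45 TPM in control lungs. Irf9 rose in bleomycin lungs, with a log2 fold change of 0.45 (SE 0.148, adjusted p = 0.0486), while the value was 0.42 (adjusted p = 0.0549) in Ad-ATP12A lungs and 0.33 (adjusted p = 0.146) in Ad-GFP lungs, and each group overlapped the controls. Irf7 in Ad-GFP lungs kept its call only when the library left out was Ad-ATP12A b1r1 or b2r2, or Ad-GFP b2r1 (log2 fold change between 0.73 and 1.33, adjusted p between 0.0515 and 0.13 without any of the other 13). The value for Irf7 was 0.73 without Ad-GFP b2r2, against 1.16 with all libraries. Stat2 in Ad-ATP12A lungs kept its call only when the library left out was Ad-ATP12A b2r2, Ad-GFP b1r2, b2r1 or b2r2, or bleomycin b2r2 (log2 fold change between 0.39 and 0.68, adjusted p between 0.0547 and 0.136 without any of the other 11). The value for Stat2 was 0.39 without Ad-ATP12A b1r1, against 0.60 with all libraries. Irf9 in bleomycin lungs kept its call only when the library left out was Ad-ATP12A b1r1, b2r1 or b2r2, Ad-GFP b1r1 or b1r2, or control b2r1 (log2 fold change between 0.38 and 0.50, adjusted p between 0.054 and 0.135 without any of the other 10).

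Among 5 sensors of foreign nucleic acid, Zbp1 and Ifi204 rose in every comparison with control lungs and the 3 helicases in none. Zbp1 recognises unusual double helices of nucleic acid and triggers necroptosis. Zbp1 measured 56.2, 29.0, 52.9 and 37.9 TPM in Ad-ATP12A, 25.7, 22.4, 18.9 and 60.9 TPM in Ad-GFP, 27.2, 20.7, 21.8 and 31.9 TPM in bleomycin and 8.39, 8.58, 12.02 and 9.19 TPM in control libraries. Its groups did not overlap the controls, and its log2 fold change was 2.06 (SE 0.291, adjusted p = 0.000535) in Ad-ATP12A lungs, 1.50 (SE 0.291, adjusted p = 0.006) in Ad-GFP lungs and 1.32 (SE 0.291, adjusted p = 0.00813) in bleomycin lungs. It was the largest of the 37 in Ad-ATP12A lungs at a pseudocount of 1 TPM; at 0.1 TPM that of Oas3, 2.56, exceeded that of Zbp1, 2.16. Ifi204 encodes a DNA-binding protein of the HIN-200 family. Ifi204 measured 18.9, 10.6, 37.4 and 23.6 TPM in Ad-ATP12A, 10.3, 15.04, 9.17 and 42.7 TPM in Ad-GFP, 19.4, 14.5, 10.2 and 23.2 TPM in bleomycin and 6.53, 4.64, 5.95 and 4.44 TPM in control libraries. The highest values were those of Ad-GFP b2r2 and Ad-ATP12A b2r1, and every control library was lower than every other library. Its log2 fold change was 1.77 (SE 0.412, adjusted p = 0.00908) in Ad-ATP12A lungs, 1.41 (SE 0.412, adjusted p = 0.0371) in Ad-GFP lungs and 1.44 (SE 0.412, adjusted p = 0.0278) in bleomycin lungs. Of the 75-base stretches of Ifi204 transcripts, 13.2% also occur in other genes, 11.3% in Ifi211, so how reads were shared between them bears on its level. Ifi204 in Ad-GFP lungs lost its call without Ad-GFP b1r2 or b2r2, or control b1r1, b1r2, b2r1 or b2r2 (log2 fold change between 0.98 and 1.57, adjusted p between 0.0511 and 0.114). The value for Ifi204 was 0.98 without Ad-GFP b2r2, against 1.41 with all libraries. Ifi204 in bleomycin lungs lost its call without bleomycin b1r1, b1r2 or b2r2, or control b1r2, b2r1 or b2r2 (log2 fold change between 1.28 and 1.44, adjusted p between 0.056 and 0.0919).

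Ifih1, which encodes the RNA helicase MDA5, had the fitted fold changes nearest 0 among the sensors, but its batches differed in direction. Ifih1 measured 20.4, 19.1, 25.6 and 18.6 TPM in Ad-ATP12A, 14.4, 13.9, 24.0 and 32.2 TPM in Ad-GFP, 17.7, 14.8, 24.3 and 27.7 TPM in bleomycin and 22.9, 18.4, 22.6 and 18.0 TPM in control libraries. All groups overlapped, and the log2 fold changes against control lungs were 0.03 (adjusted p = 0.924) in Ad-ATP12A lungs, −0.03 (adjusted p = 0.935) in Ad-GFP lungs and 0.01 (adjusted p = 0.976) in bleomycin lungs. These values average over the batches. In batch 1 and batch 2 the difference was −0.05 and 0.11 in Ad-ATP12A, −0.51 and 0.45 in Ad-GFP, and −0.32 and 0.35 in bleomycin lungs. No difference between batches passed for Ifih1, and the lowest adjusted p was 0.0806, in Ad-GFP lungs (limma interaction). Dhx58, the helicase LGP2 that tunes MDA5, averaged 10.3 ± 3 TPM in Ad-ATP12A, 9.41 ± 4.01 TPM in Ad-GFP, 9.71 ± 1.66 TPM in bleomycin and 6.04 ± 2.01 TPM in control lungs, with log2 fold changes of 0.69 (adjusted p = 0.0618) in Ad-ATP12A lungs, 0.54 (adjusted p = 0.166) in Ad-GFP lungs and 0.63 (adjusted p = 0.0911) in bleomycin lungs. Ddx60, a related helicase whose promoter window is shown above, was among the least abundant of the 37 genes. It averaged 5.07 ± 2.11 TPM in Ad-ATP12A, 4.86 ± 1.95 TPM in Ad-GFP, 4.32 ± 1.07 TPM in bleomycin and 3.40 ± 0.88 TPM in control lungs, and its groups overlapped.

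In the 2-5A synthetase family all 5 members rose in Ad-ATP12A lungs, 4 in Ad-GFP lungs and all 5 in bleomycin lungs, with median log2 fold changes of 1.66, 1.21 and 1.17. The family is named for making 2-5A, the oligoadenylate that activates RNase L, and Oasl1 is a relative that lacks this activity in mice. Oas1a measured 36.6, 20.8, 17.6 and 22.7 TPM in Ad-ATP12A, 17.3, 14.5, 12.6 and 27.5 TPM in Ad-GFP, 18.8, 15.4, 15.8 and 19.6 TPM in bleomycin and 7.58, 4.58, 7.48 and 4.11 TPM in control libraries. The lowest value of any bleomycin-treated group, in Ad-GFP b2r1, exceeded the highest control value. Its log2 fold change was 1.86 (SE 0.259, adjusted p = 0.000474) in Ad-ATP12A lungs, 1.43 (SE 0.259, adjusted p = 0.00423) in Ad-GFP lungs and 1.44 (SE 0.259, adjusted p = 0.00286) in bleomycin lungs. Nearly as many stretches of Oas1a transcripts are shared as are unique, since 47.6% of its 75-base stretches also occur in Oas1g, so its reads and those of Oas1g could be split in different ways. Oas2 measured 23.1, 10.01, 9.35 and 9.36 TPM in Ad-ATP12A, 15.2, 7.03, 5.38 and 13.8 TPM in Ad-GFP, 10.1, 9.05, 11.2 and 11.2 TPM in bleomycin and 4.24, 2.43, 2.64 and 3.41 TPM in control libraries. The control libraries were again the lowest, and Ad-ATP12A b1r1 stood well above the other 3 of its group. The log2 fold change of Oas2 was 1.66 (SE 0.309, adjusted p = 0.003) in Ad-ATP12A lungs, 1.35 (SE 0.309, adjusted p = 0.0133) in Ad-GFP lungs and 1.46 (SE 0.309, adjusted p = 0.00646) in bleomycin lungs.

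Oas3 was the scarcest synthetase in control lungs. Oas3 measured 9.88, 4.25, 6.53 and 6.30 TPM in Ad-ATP12A, 3.49, 2.95, 1.81 and 8.94 TPM in Ad-GFP, 5.09, 3.09, 2.43 and 4.18 TPM in bleomycin and 1.28, 0.64, 1.58 and 0.79 TPM in control libraries. No bleomycin-treated library was as low as the highest control library, although Ad-GFP b2r1 came close. Its log2 fold change was 1.88 (SE 0.339, adjusted p = 0.00257) in Ad-ATP12A lungs, 1.21 (SE 0.339, adjusted p = 0.0315) in Ad-GFP lungs and 1.17 (SE 0.339, adjusted p = 0.0291) in bleomycin lungs. Oasl1 averaged 5.79 ± 2.52 TPM in Ad-ATP12A, 4.28 ± 2.22 TPM in Ad-GFP, 4.85 ± 0.641 TPM in bleomycin and 1.80 ± 0.312 TPM in control lungs. Oasl1 rose in Ad-ATP12A and bleomycin lungs, with log2 fold changes of 1.21 (SE 0.28, adjusted p = 0.00886) and 1.06 (SE 0.28, adjusted p = 0.019), while in Ad-GFP lungs the value was 0.82 (SE 0.28, adjusted p = 0.0659) and b2r1 overlapped the controls. Oasl2 was the most abundant of the family per length. Oasl2 averaged 79.1 ± 33.4 TPM in Ad-ATP12A, 64.8 ± 19.6 TPM in Ad-GFP, 65.4 ± 9.34 TPM in bleomycin and 33.7 ± 6.13 TPM in control lungs. On the log2 scale it rose by 1.14 (SE 0.258, adjusted p = 0.00794) in Ad-ATP12A, by 0.89 (SE 0.258, adjusted p = 0.0357) in Ad-GFP and by 0.94 (SE 0.258, adjusted p = 0.0223) in bleomycin lungs, with no overlap with the controls. Oas2 in Ad-GFP lungs lost its call without Ad-GFP b2r2 (log2 fold change 1.14, adjusted p = 0.0511). Oas3 in Ad-GFP lungs lost its call without Ad-GFP b1r1, b1r2 or b2r2, or control b1r1, b1r2 or b2r2 (log2 fold change between 0.83 and 1.29, adjusted p between 0.0514 and 0.0919). The value for Oas3 was 0.83 without Ad-GFP b2r2, against 1.21 with all libraries. Oas3 in bleomycin lungs lost its call without bleomycin b1r1, b1r2 or b2r2, or control b1r2 or b2r2 (log2 fold change between 1.01 and 1.22, adjusted p between 0.0594 and 0.0994). Oasl1 in bleomycin lungs lost its call without bleomycin b1r1 or b2r2, or control b1r1 or b1r2 (log2 fold change between 0.99 and 1.05, adjusted p between 0.0514 and 0.0569). Oasl2 in Ad-GFP lungs lost its call without Ad-GFP b1r1, b1r2 or b2r2, or control b1r1, b1r2 or b2r2 (log2 fold change between 0.70 and 1.00, adjusted p between 0.0505 and 0.123). The value for Oasl2 was 0.70 without Ad-GFP b2r2, against 0.89 with all libraries. Oasl2 in bleomycin lungs lost its call without bleomycin b1r1 or b2r2, or control b1r2 (log2 fold change between 0.81 and 0.95, adjusted p between 0.0597 and 0.073).

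**Figure D3:**
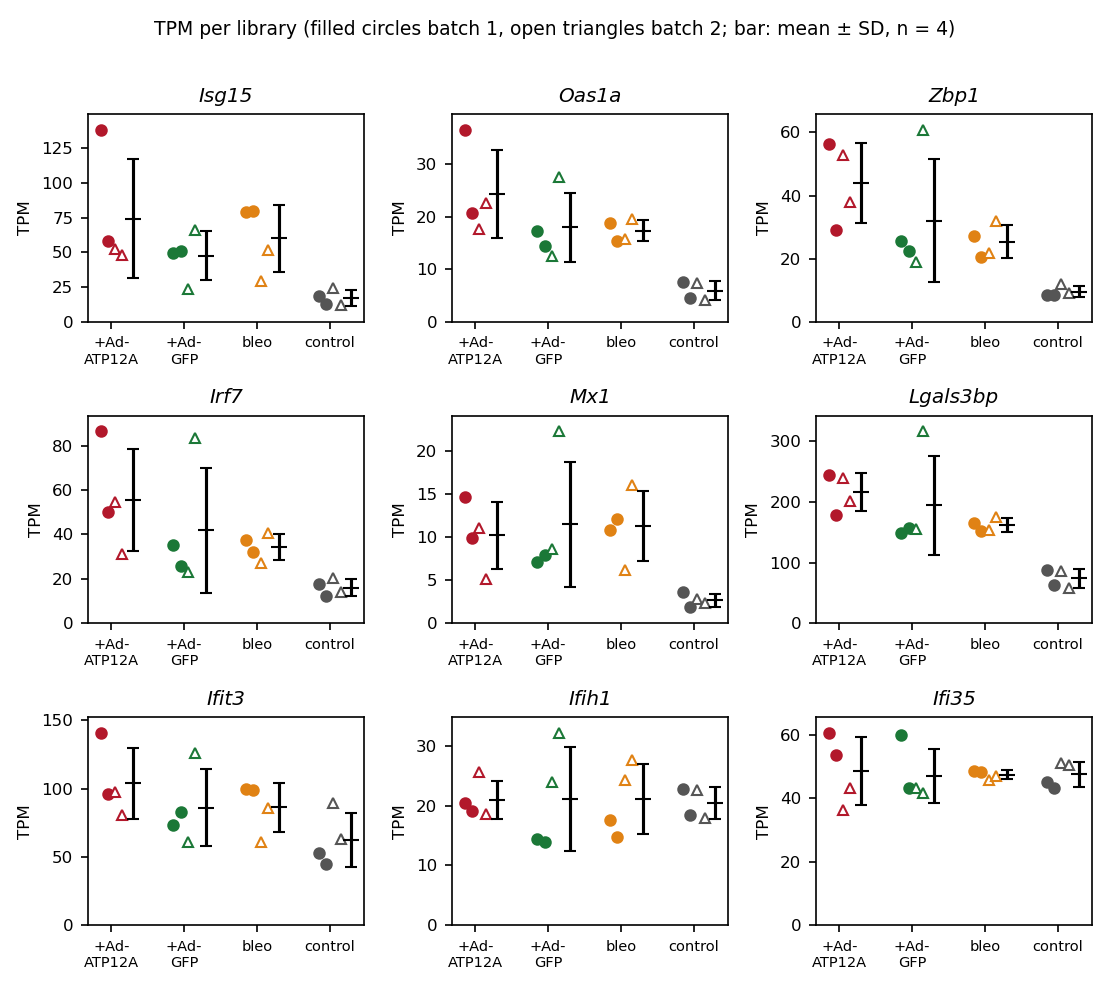
TPM per library of 9 of the 37 genes by group, with circles for batch 1, triangles for batch 2 and bars for mean ± SD over 4 libraries; each y axis starts at 0 and has its own range. Isg15, Oas1a, Zbp1, Irf7, Mx1 and Lgals3bp passed in at least 2 comparisons with control lungs; Ifit3, Ifih1 and Ifi35 passed in none, and their groups overlap.

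Of 5 genes whose products act on translation, Ifit1 alone passed the test. Ifit1 binds viral RNA that lacks the methylated cap of the host. Ifit1 measured 50.5, 34.4, 28.4 and 16.8 TPM in Ad-ATP12A, 26.2, 21.9, 18.0 and 36.7 TPM in Ad-GFP, 30.1, 32.7, 22.1 and 28.9 TPM in bleomycin and 12.9, 8.20, 14.0 and 9.61 TPM in control libraries. Its groups did not overlap the controls, and its log2 fold change was 1.39 (SE 0.276, adjusted p = 0.00409) in Ad-ATP12A lungs, 1.11 (SE 0.276, adjusted p = 0.0191) in Ad-GFP lungs and 1.29 (SE 0.276, adjusted p = 0.00693) in bleomycin lungs. Ifit3, an adaptor that stabilises IFIT complexes in human cells, was more abundant per length and overlapped between groups. Ifit3 measured 141, 96.2, 97.6 and 80.7 TPM in Ad-ATP12A, 73.3, 83.2, 61.1 and 126 TPM in Ad-GFP, 99.8, 98.8, 61.1 and 86.2 TPM in bleomycin and 52.7, 44.4, 89.6 and 62.8 TPM in control libraries. The control library b2r1 lay among the bleomycin-treated libraries, and the log2 fold changes were 0.74 (adjusted p = 0.0521) in Ad-ATP12A lungs, 0.45 (adjusted p = 0.256) in Ad-GFP lungs and 0.49 (adjusted p = 0.201) in bleomycin lungs. Ifit1 in Ad-GFP lungs lost its call without Ad-GFP b2r2, or control b1r2 (log2 fold change between 0.87 and 0.93, adjusted p between 0.0662 and 0.0673). The value for Ifit1 was 0.87 without Ad-GFP b2r2, against 1.11 with all libraries.

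Ifit3b, the copy of Ifit3 with the identical promoter window, lay between 11.7 and 25.0 TPM in every library and had log2 fold changes of 0.11 (adjusted p = 0.738) in Ad-ATP12A lungs, −0.11 (adjusted p = 0.776) in Ad-GFP lungs and 0.06 (adjusted p = 0.883) in bleomycin lungs. Of the 75-base stretches of Ifit3 and Ifit3b transcripts, 41.1% and 35.7% are shared between these genes, so the split of reads between them is uncertain. Ifit2 averaged 30.3 ± 13.3 TPM in Ad-ATP12A, 24.7 ± 16.9 TPM in Ad-GFP, 22.4 ± 4.12 TPM in bleomycin and 19.2 ± 3.19 TPM in control lungs; Ad-ATP12A b2r1 and Ad-GFP b2r2 were its highest libraries, at 49.7 and 49.8 TPM. Eif2ak2, the kinase PKR that halts translation when it binds double-stranded RNA, measured 31.1, 22.5, 31.0 and 21.3 TPM in Ad-ATP12A, 22.8, 20.3, 26.6 and 36.2 TPM in Ad-GFP, 22.5, 19.8, 29.6 and 34.2 TPM in bleomycin and 19.9, 17.6, 19.4 and 18.1 TPM in control libraries. Both vector groups lay wholly above the controls, and bleomycin b1r2 did not. Its log2 fold changes were 0.46 (adjusted p = 0.0685) in Ad-ATP12A lungs, 0.45 (adjusted p = 0.0989) in Ad-GFP lungs and 0.45 (adjusted p = 0.0817) in bleomycin lungs.

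Isg15, a ubiquitin-like protein that is attached to other proteins, had the largest log2 fold change of the 37 genes in bleomycin lungs at a pseudocount of 1 TPM, while at 0.1 TPM that of Mx1, 1.98, exceeded that of Isg15, 1.76. Isg15 measured 138, 58.0, 52.5 and 48.4 TPM in Ad-ATP12A, 49.5, 50.8, 23.6 and 66.4 TPM in Ad-GFP, 78.8, 80.0, 29.4 and 52.0 TPM in bleomycin and 18.7, 13.0, 24.3 and 12.2 TPM in control libraries. Ad-ATP12A b1r1 was the highest library, Ad-GFP b2r1 fell just under the highest control library, and the other libraries of the bleomycin-treated groups lay above all controls. The log2 fold change was 1.97 (SE 0.359, adjusted p = 0.00265) in Ad-ATP12A lungs, 1.39 (SE 0.359, adjusted p = 0.0225) in Ad-GFP lungs and 1.71 (SE 0.359, adjusted p = 0.00636) in bleomycin lungs. Usp18, the protease that removes ISG15 and also dampens the interferon receptor, averaged 30.7 ± 10.7 TPM in Ad-ATP12A, 24.9 ± 6.44 TPM in Ad-GFP, 23.4 ± 5.31 TPM in bleomycin and 17.7 ± 2.2 TPM in control lungs. It rose in Ad-ATP12A lungs, with a log2 fold change of 0.71 (SE 0.21, adjusted p = 0.0288), while the values were 0.44 (adjusted p = 0.176) in Ad-GFP and 0.37 (adjusted p = 0.24) in bleomycin lungs. Herc6, the ligase that attaches ISG15 in mice, averaged 12.4 ± 3.41 TPM in Ad-ATP12A, 13.8 ± 2.89 TPM in Ad-GFP, 13.7 ± 3.18 TPM in bleomycin and 12.3 ± 1.46 TPM in control lungs, and its groups overlapped. Isg15 in Ad-GFP lungs lost its call without Ad-GFP b1r2 or b2r2, or control b1r1 or b1r2 (log2 fold change between 1.09 and 1.42, adjusted p between 0.0573 and 0.0805). The value for Isg15 was 1.09 without Ad-GFP b2r2, against 1.39 with all libraries. Usp18 in Ad-ATP12A lungs lost its call without Ad-ATP12A b1r1 or b1r2, or control b1r1 or b1r2 (log2 fold change between 0.56 and 0.66, adjusted p between 0.0556 and 0.0891). The value for Usp18 was 0.56 without Ad-ATP12A b1r1, against 0.71 with all libraries. Within batches the Ad-ATP12A difference of Usp18 from control lungs was 1.25 in batch 1 and 0.16 in batch 2. The test of that difference between batches did not pass (limma interaction, adjusted p = 0.0722).

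Of 7 antiviral effectors, Mx1 and Bst2 rose in all comparisons with control lungs and Mx2 in Ad-ATP12A and bleomycin lungs. Mx1 and Mx2 are dynamin-like GTPases that block viral replication. Mx1 measured 14.6, 9.93, 11.1 and 5.14 TPM in Ad-ATP12A, 7.08, 7.90, 8.62 and 22.3 TPM in Ad-GFP, 10.8, 12.1, 6.17 and 15.99 TPM in bleomycin and 3.68, 1.92, 2.86 and 2.35 TPM in control libraries. Ad-GFP b2r2 stood far above the other 3 of its group, and no group overlapped the controls. The log2 fold change of Mx1 was 1.54 (SE 0.363, adjusted p = 0.00973) in Ad-ATP12A lungs, 1.63 (SE 0.363, adjusted p = 0.0121) in Ad-GFP lungs and 1.68 (SE 0.363, adjusted p = 0.00716) in bleomycin lungs. Without Ad-GFP b2r2 that of Ad-GFP lungs was 1.25 (adjusted p = 0.0359). Mx2 averaged 4.76 ± 2.23 TPM in Ad-ATP12A, 3.60 ± 1.71 TPM in Ad-GFP, 4.87 ± 1.32 TPM in bleomycin and 1.69 ± 0.522 TPM in control lungs. Its log2 fold change was 1.05 (SE 0.295, adjusted p = 0.0216) in Ad-ATP12A lungs, 0.72 (SE 0.295, adjusted p = 0.117) in Ad-GFP lungs and 1.12 (SE 0.295, adjusted p = 0.0188) in bleomycin lungs. Bst2, tetherin, holds budding viruses at the cell surface and is also a marker of plasmacytoid dendritic cells in mice. Bst2 measured 259.6, 179, 155 and 127 TPM in Ad-ATP12A, 153, 154, 126 and 176 TPM in Ad-GFP, 156, 152, 128 and 126 TPM in bleomycin and 101, 84.1, 118 and 81.4 TPM in control libraries. Its groups did not overlap the controls, and its log2 fold change was 0.86 (SE 0.174, adjusted p = 0.00447) in Ad-ATP12A lungs, 0.67 (SE 0.174, adjusted p = 0.0235) in Ad-GFP lungs and 0.55 (SE 0.174, adjusted p = 0.0408) in bleomycin lungs. Mx2 in Ad-ATP12A lungs lost its call without Ad-ATP12A b1r1, or control b1r2 (log2 fold change between 0.82 and 0.86, adjusted p between 0.0664 and 0.0705). The value for Mx2 was 0.82 without Ad-ATP12A b1r1, against 1.05 with all libraries. Mx2 in bleomycin lungs lost its call without bleomycin b1r1, b1r2 or b2r2, or control b1r2 (log2 fold change between 0.93 and 1.13, adjusted p between 0.0529 and 0.0639). Bst2 in Ad-GFP lungs lost its call without Ad-GFP b1r2 or b2r2, or control b1r1 or b1r2 (log2 fold change between 0.55 and 0.70, adjusted p between 0.0581 and 0.0864). The value for Bst2 was 0.55 without Ad-GFP b2r2, against 0.67 with all libraries. Bst2 in bleomycin lungs lost its call without Ad-ATP12A b2r1, bleomycin b1r1, b1r2, b2r1 or b2r2, or control b1r1, b1r2 or b2r2 (log2 fold change between 0.45 and 0.57, adjusted p between 0.0505 and 0.125).

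The other effectors did not pass. Rsad2, viperin, which makes a chain-terminating nucleotide, had log2 fold changes of 0.76 (adjusted p = 0.064) in Ad-ATP12A lungs, 0.43 (adjusted p = 0.317) in Ad-GFP lungs and 0.71 (adjusted p = 0.0909) in bleomycin lungs, and its Ad-ATP12A libraries, at 11.2 to 17.1 TPM, lay above the controls, at 4.19 to 10.8 TPM. Cmpk2, the neighbouring gene that supplies the nucleotide precursor, averaged 14.3 ± 3.39 TPM in Ad-ATP12A, 13.1 ± 1.63 TPM in Ad-GFP, 12.9 ± 0.648 TPM in bleomycin and 11.0 ± 0.988 TPM in control lungs. Trim30a, a restrainer of inflammatory signalling in mice, had log2 fold changes of 0.21 (adjusted p = 0.417) in Ad-ATP12A lungs, −0.00 (adjusted p = 0.994) in Ad-GFP lungs and 0.21 (adjusted p = 0.441) in bleomycin lungs. Samd9l, which cuts transfer RNA and restricts poxviruses, averaged 42.4 ± 12.2 TPM in Ad-ATP12A, 45.3 ± 11.1 TPM in Ad-GFP, 43.9 ± 7.08 TPM in bleomycin and 41.7 ± 6.84 TPM in control lungs.

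The ADP-ribosyltransferases differed. Parp9 averaged 41.0 ± 6.5 TPM in Ad-ATP12A, 35.3 ± 11.3 TPM in Ad-GFP, 33.2 ± 4.21 TPM in bleomycin and 24.8 ± 3.02 TPM in control lungs. Parp9, a partner of the ubiquitin ligase DTX3L, rose in Ad-ATP12A lungs with a log2 fold change of 0.70 (SE 0.153, adjusted p = 0.00667), and it had 0.46 (adjusted p = 0.063) in Ad-GFP and 0.41 (adjusted p = 0.0777) in bleomycin lungs. Parp14 averaged 31.4 ± 3.26 TPM in Ad-ATP12A, 29.5 ± 8.76 TPM in Ad-GFP, 29.4 ± 8.33 TPM in bleomycin and 25.8 ± 2.79 TPM in control lungs. Parp14, which modifies proteins with single ADP-ribose units, had log2 fold changes of 0.28 (adjusted p = 0.211) in Ad-ATP12A lungs, 0.15 (adjusted p = 0.548) in Ad-GFP lungs and 0.15 (adjusted p = 0.54) in bleomycin lungs.

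Among the remaining 7 genes, Lgals3bp had the smallest adjusted p of the 37 in Ad-ATP12A and Ad-GFP lungs. It encodes a secreted glycoprotein that binds galectins. Lgals3bp measured 244, 178, 239 and 202 TPM in Ad-ATP12A, 148, 158, 156 and 316 TPM in Ad-GFP, 166, 153, 154 and 175 TPM in bleomycin and 87.9, 63.6, 86.5 and 58.0 TPM in control libraries. Every bleomycin-treated library exceeded every control library, and Ad-GFP b2r2 stood above the other 3 of its group. The log2 fold change was 1.54 (SE 0.211, adjusted p = 0.000407) in Ad-ATP12A lungs, 1.33 (SE 0.211, adjusted p = 0.002) in Ad-GFP lungs and 1.14 (SE 0.211, adjusted p = 0.00326) in bleomycin lungs. Against bleomycin lungs, every Ad-ATP12A library of Lgals3bp also lay above every bleomycin library, the one gene of the 37 for which that held, as it did for 0.506% of all genes tested, and it did not pass that test.

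Ifi27l2a, which encodes a small hydrophobic protein, had a transcript level that split by batch in Ad-ATP12A lungs. Ifi27l2a measured 303, 226, 104 and 93.8 TPM in Ad-ATP12A, 188, 90.9, 101 and 153 TPM in Ad-GFP, 121, 129, 164 and 167 TPM in bleomycin and 88.6, 47.8, 63.7 and 51.1 TPM in control libraries. Batch 1 held the 2 highest Ad-ATP12A values, and no bleomycin-treated library was as low as the highest control. The log2 fold change was 1.39 (SE 0.334, adjusted p = 0.0108) in Ad-ATP12A lungs, 1.05 (SE 0.334, adjusted p = 0.0508) in Ad-GFP lungs and 1.22 (SE 0.334, adjusted p = 0.0223) in bleomycin lungs. Its relative Ifi27 averaged 190.0 ± 68.3 TPM in Ad-ATP12A, 191 ± 45.8 TPM in Ad-GFP, 194 ± 10.5 TPM in bleomycin and 149 ± 6.08 TPM in control lungs. Although all 4 bleomycin libraries of Ifi27 exceeded the controls, its log2 fold changes of 0.28 (adjusted p = 0.267) in Ad-ATP12A lungs, 0.32 (adjusted p = 0.23) in Ad-GFP lungs and 0.38 (adjusted p = 0.148) in bleomycin lungs did not pass. Ifi27l2a in bleomycin lungs lost its call without bleomycin b2r2, or control b1r2 (log2 fold change between 1.04 and 1.09, adjusted p between 0.0715 and 0.0734).

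Rtp4, a chaperone of some G protein-coupled receptors, averaged 58.8 ± 15.3 TPM in Ad-ATP12A, 46.9 ± 16.1 TPM in Ad-GFP, 45.1 ± 7.32 TPM in bleomycin and 27.7 ± 5.54 TPM in control lungs. No group overlapped the controls, and its log2 fold change was 1.05 (SE 0.232, adjusted p = 0.00705) in Ad-ATP12A lungs, 0.71 (SE 0.232, adjusted p = 0.058) in Ad-GFP lungs and 0.69 (SE 0.232, adjusted p = 0.0506) in bleomycin lungs. Xaf1, an antagonist of the apoptosis inhibitor XIAP, averaged 62.0 ± 15.7 TPM in Ad-ATP12A, 59.2 ± 7.08 TPM in Ad-GFP, 59.5 ± 3.61 TPM in bleomycin and 42.9 ± 6.44 TPM in control lungs, with log2 fold changes of 0.50 (adjusted p = 0.0302) in Ad-ATP12A lungs, 0.46 (adjusted p = 0.0593) in Ad-GFP lungs and 0.47 (adjusted p = 0.0433) in bleomycin lungs. Ifi44 averaged 11.8 ± 6.22 TPM in Ad-ATP12A, 9.25 ± 3.5 TPM in Ad-GFP, 10.4 ± 2.42 TPM in bleomycin and 5.10 ± 1.91 TPM in control lungs. Ifi44 rose in Ad-ATP12A lungs, with 1.00 (SE 0.337, adjusted p = 0.0459), and had 0.73 (adjusted p = 0.164) in Ad-GFP and 0.94 (adjusted p = 0.0674) in bleomycin lungs. Ifi35 measured 60.7, 53.6, 36.4 and 43.5 TPM in Ad-ATP12A, 60.0, 43.4, 43.3 and 41.7 TPM in Ad-GFP, 48.7, 48.5, 45.7 and 47.0 TPM in bleomycin and 45.3, 43.2, 51.3 and 50.7 TPM in control libraries. All groups of Ifi35 overlapped, and its log2 fold changes were 0.01 (adjusted p = 0.985) in Ad-ATP12A lungs, −0.03 (adjusted p = 0.915) in Ad-GFP lungs and −0.00 (adjusted p = 0.996) in bleomycin lungs. Xaf1 in Ad-ATP12A lungs lost its call without Ad-ATP12A b1r1, or control b1r1, b1r2 or b2r2 (log2 fold change between 0.33 and 0.47, adjusted p between 0.0595 and 0.079). The value for Xaf1 was 0.33 without Ad-ATP12A b1r1, against 0.50 with all libraries. Within batches the Ad-ATP12A difference of Xaf1 from control lungs was 0.83 in batch 1 and 0.18 in batch 2. The test of that difference between batches did not pass (limma interaction, adjusted p = 0.144). Xaf1 in bleomycin lungs kept its call only when the library left out was Ad-ATP12A b1r1, b2r1 or b2r2, Ad-GFP b2r1 or b2r2, or control b2r1 (log2 fold change between 0.42 and 0.52, adjusted p between 0.0511 and 0.11 without any of the other 10). Ifi44 in Ad-ATP12A lungs kept its call only when the library left out was Ad-ATP12A b2r1 or b2r2, Ad-GFP b1r2 or b2r2, or control b1r1 (log2 fold change between 0.69 and 1.09, adjusted p between 0.0506 and 0.133 without any of the other 11). The value for Ifi44 was 0.69 without Ad-ATP12A b1r1, against 1.00 with all libraries.

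**Figure D4:**
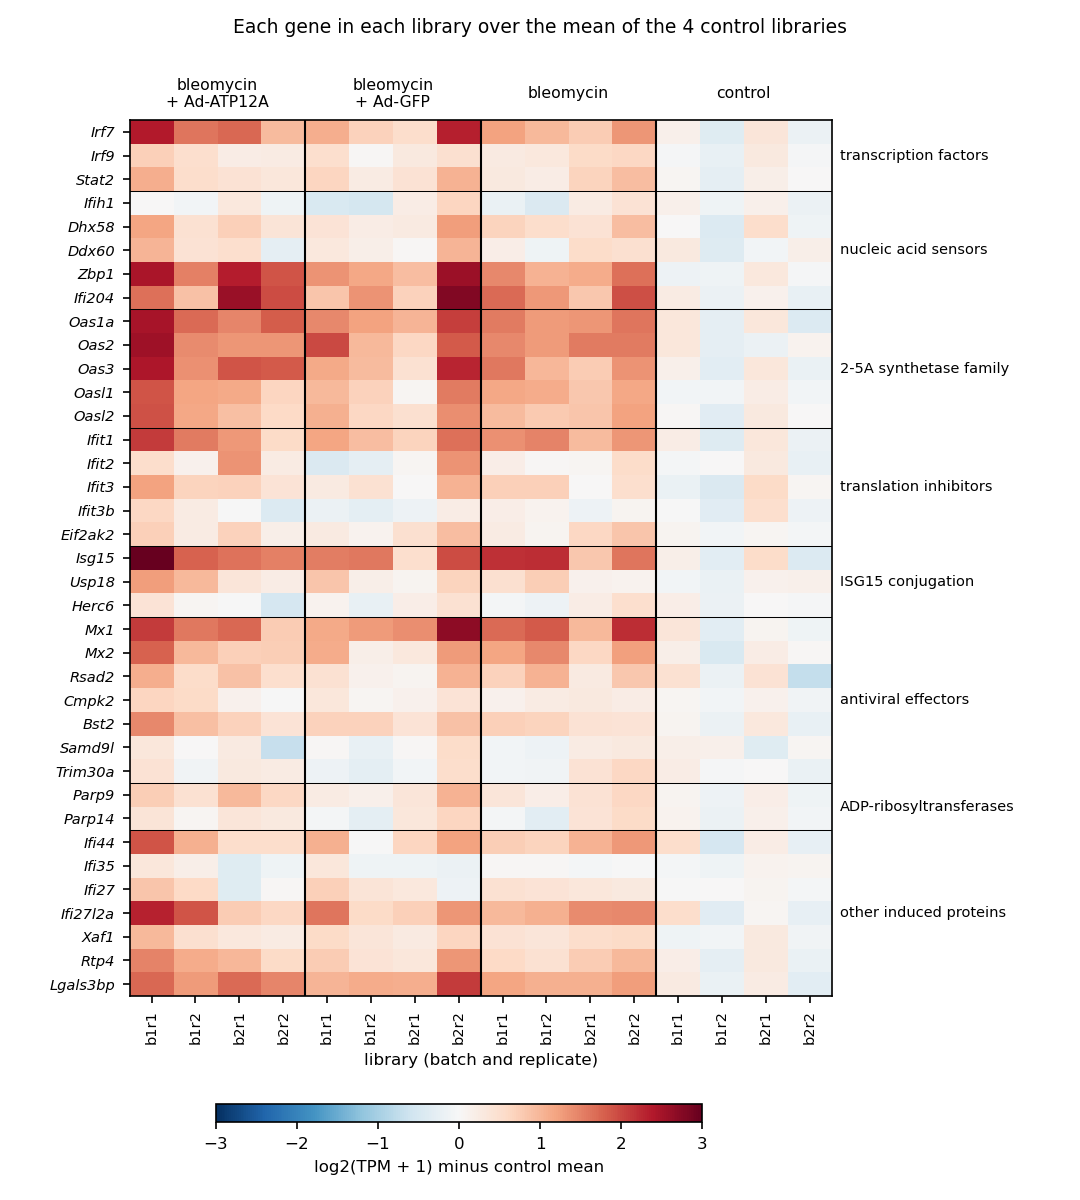
Each of the 37 genes (rows, grouped by role) in each of the 16 libraries (columns, by group), coloured by log2(TPM + 1) minus the mean of the 4 control libraries; blue is lower and red is higher. The columns Ad-ATP12A b1r1 and Ad-GFP b2r2 are red for most genes, and the rows of Ifih1, Ifi35 and Ifit3b stay pale in most columns.

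The counts of genes that passed moved with single libraries. In Ad-ATP12A lungs, 16 of the 21 genes kept their call whichever library was left out, and the count lay between 16 and 24. In Ad-GFP lungs 4 of the 12 kept it, namely Mx1, Oas1a, Zbp1 and Lgals3bp. The Ad-GFP count was 4 without Ad-GFP b2r2, 7 without Ad-GFP b1r2, 5 without control b1r2 and 6 without control b1r1. In bleomycin lungs 7 of the 16 kept it, namely Isg15, Ifit1, Mx1, Oas1a, Oas2, Zbp1 and Lgals3bp. Leaving out bleomycin b1r1 gave a bleomycin count of 8, bleomycin b1r2 gave 10, and bleomycin b2r2 and control b1r2 each gave 7. Without Ad-ATP12A b1r1 the Ad-ATP12A median was 0.64 in place of 0.74, and without Ad-GFP b2r2 the Ad-GFP median was 0.43 in place of 0.54. Without the 3 libraries low in Scgb1a1, an alternative chosen after the data were seen, 21 genes passed in Ad-ATP12A, 7 in Ad-GFP and 7 in bleomycin lungs.

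Between the bleomycin-treated groups no gene of the 37 passed. Ad-ATP12A lungs differed from Ad-GFP lungs by a median log2 fold change of 0.24 over the 37 genes, with 33 of them above 0, against a median of −0.01 and 45.8% above 0 for all genes tested. None passed by limma, and of all genes tested 0.00588% passed. At an unadjusted p under 0.05 there were 0 of the 37, against 1.16% of all genes higher and 1.26% lower. Irf7 had the fitted value of 0.51 (SE 0.36, adjusted p = 0.999), Isg15 of 0.58 (SE 0.359, adjusted p = 0.999), Zbp1 of 0.56 (SE 0.291, adjusted p = 0.999) and Oas3 of 0.67 (SE 0.339, adjusted p = 0.999). Against bleomycin lungs, Ad-ATP12A lungs had a median of 0.13, with 31 of 37 genes above 0. Over all genes tested the median was −0.04, with 37.1% above 0. At an unadjusted p under 0.05, 1 of the 37 was higher, against 1.31% of all genes higher and 1.68% lower. Of all genes tested 0.0235% passed. Ad-GFP lungs had a median of −0.03 against bleomycin lungs, with 14 of 37 above 0. That was near all genes tested, with a median of −0.03 and 41.4% above 0. At an unadjusted p under 0.05 there were 0 of the 37, against 0.665% of all genes higher and 1.02% lower. Of all genes tested 0.0118% passed.

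The difference between the vectors moved with single libraries. Without Ad-ATP12A b1r1, the median of Ad-ATP12A minus Ad-GFP was 0.04 with 22 of 37 genes above 0, and that of Ad-ATP12A minus bleomycin was −0.07 with 14 above 0. Over all genes tested the medians were −0.01 with 48.6% above 0 and −0.04 with 40.8% above 0. Without Ad-GFP b2r2, the median of Ad-ATP12A minus Ad-GFP was 0.41 with 35 above 0, and that of Ad-GFP minus bleomycin was −0.24 with 2 above 0. All genes tested then had medians of −0.00 with 49.3% above 0 and −0.04 with 40.1% above 0. Without both libraries, Ad-ATP12A minus Ad-GFP had a median of 0.20 with 29 above 0, against 0.00 with 50.4% above 0 for all genes tested. Batches also differed: within batch 2 the median of Ad-ATP12A minus Ad-GFP was −0.09 with 12 of 37 genes above 0, and within batch 1 it was 0.52 with all 37 above 0. For all genes tested the medians were −0.06 in batch 2, near that of the 37, and 0.02 in batch 1. Irf7 differed by −0.09 in batch 2 and by 1.10 in batch 1, Ifi27l2a by −0.33 in batch 2 and by 1.00 in batch 1, and Mx1 by −0.80 in batch 2 and by 0.62 in batch 1. Isg15 differed in one direction in both, by 0.34 in batch 2 and by 0.83 in batch 1. The test of the difference between batches found none of the 37 genes (limma interaction, lowest adjusted p = 0.755), and 0% of all genes tested passed it. At an unadjusted p under 0.05 it found 7 of the 37, a threshold at which the share of all genes was not computed.

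**Figure D5:**
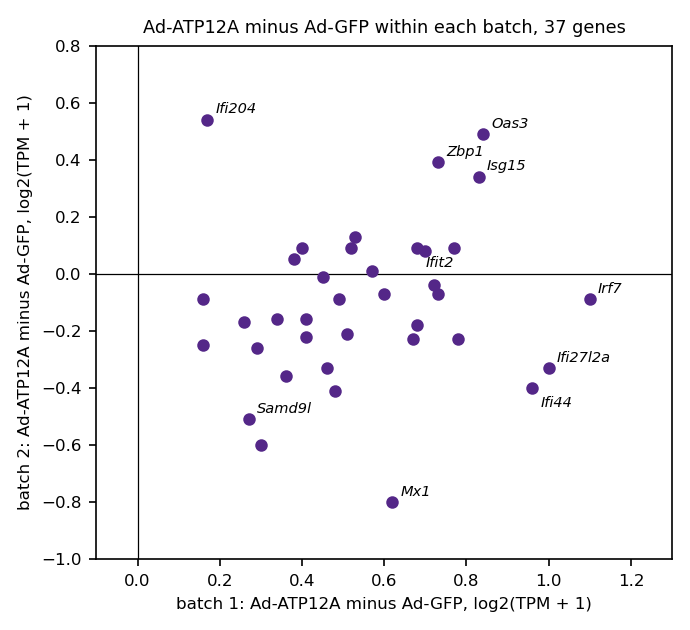
Difference between Ad-ATP12A and Ad-GFP lungs for each of the 37 genes on the log2(TPM + 1) scale, in batch 1 (x axis) and batch 2 (y axis), each from 2 libraries per group and without a test. All 37 points lie right of 0 on the x axis and 12 lie above 0 on the y axis, with Mx1 lowest at −0.80.

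Within each batch the median of the 37 genes lay above 0 in each bleomycin-treated group against control lungs, with some genes at or under 0. The median difference from control lungs was 0.54 in batch 2 and 1.22 in batch 1 for Ad-ATP12A, 0.67 and 0.57 for Ad-GFP, and 0.68 and 0.73 for bleomycin lungs, always with batch 2 given first. Over all genes tested those medians were 0.00 and 0.04, 0.07 and 0.01, and 0.10 and 0.00. Fitted with limma in batch 2 alone, 3, 0 and 0 of the 37 genes rose in Ad-ATP12A, Ad-GFP and bleomycin lungs in that order. Of all genes tested, 6.43, 0.271 and 0.135% rose. At an unadjusted p under 0.05, 9, 15 and 16 of the 37 were higher and 1, 0 and 0 lower. The share of all genes at that unadjusted threshold was not computed for single batches, so these counts have no background beside them. In batch 1 alone 25, 11 and 15 rose, against 9.26, 10.7 and 14.3% of all genes tested, and 1 fell, in Ad-GFP lungs. In Ad-ATP12A lungs 32 genes were above 0 in batch 2 and 36 in batch 1, in Ad-GFP lungs 35 and 30, and in bleomycin lungs 33 and 32. The test of a difference between batches found none of the 37 genes in the 3 comparisons with control lungs, and at an unadjusted p under 0.05 it found 11 in Ad-ATP12A, 3 in Ad-GFP and 5 in bleomycin lungs. Of all genes tested, 2.8%, 2.36% and 0.0647% passed it at the adjusted threshold in that order of groups. Their share at the unadjusted threshold was not computed. The Ad-ATP12A count became 2 when Ad-GFP b1r1 or Ad-GFP b1r2 was left out. For Ad-GFP and for Ad-ATP12A against bleomycin lungs none of the 37 passed either, and 0% of all genes tested passed in each. At an unadjusted p under 0.05 this test found 0 and 10 of the 37, again without the share of all genes at that threshold.

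Across all groups, the 37 genes were balanced in direction between the batches, with a median log2 difference of 0 and 19 genes higher in batch 2. At an unadjusted p under 0.05 (limma), 4 were higher and 1 lower in batch 2, against 28% and 6.65% of all genes tested. Ifih1 and Parp14 passed, both higher in batch 2, by 0.42 (adjusted p = 0.0445) and 0.38 (adjusted p = 0.0327). Of all genes tested, 16.4% were higher in batch 2. Ifih1 kept its call only when the library left out was Ad-ATP12A b2r2, control b1r1 or control b2r2 (adjusted p between 0.0511 and 0.0963 otherwise). Parp14 lost its call without Ad-ATP12A b1r2 or without any 1 of the Ad-GFP and bleomycin libraries (adjusted p between 0.0524 and 0.0744). Neither passed after quantile normalization or median-ratio scaling.

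Levels can be set in order within a group, since TPM is per length. Lgals3bp was highest in Ad-ATP12A lungs (216 TPM) and in Ad-GFP lungs (194 TPM), each time next to Ifi27 (190.0 and 191 TPM), from which it differed by less than the SD of either. Ifi27 was highest in bleomycin lungs (194 TPM) and in control lungs (149 TPM). Mx2 was lowest in Ad-ATP12A lungs (4.76 TPM) and in Ad-GFP lungs (3.60 TPM), and Oas3 in bleomycin lungs (3.70 TPM) and in control lungs (1.07 TPM). The median SD of the 37 genes over the libraries of a group was 0.43 in Ad-ATP12A, 0.44 in Ad-GFP, 0.24 in bleomycin and 0.25 in control lungs on the log2(TPM + 1) scale, against 0.27, 0.30, 0.24 and 0.19 for all genes tested. Without Ad-ATP12A b1r1 it was 0.28 in Ad-ATP12A lungs, against 0.25 for all genes tested, and without Ad-GFP b2r2 it was 0.22 in Ad-GFP lungs, against 0.27.

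The interferon genes themselves were at or near 0. Of 18 type I interferon genes, 11 were listed at 0 in every library, none passed the filter, and the highest value of any was 0.46 TPM. Ifnb1, the interferon beta gene, was listed at 0 in every library but bleomycin b1r1, which had 0.11 TPM. Ifng, the gene of interferon gamma, measured 0.94, 1.09, 1.79 and 0.39 TPM in Ad-ATP12A, 0.67, 0.47, 0.39 and 1.50 TPM in Ad-GFP, 0.39, 0.37, 0.60 and 0.63 TPM in bleomycin and 0.37, 0.00, 0.49 and 0.41 TPM in control libraries. Its highest libraries were Ad-ATP12A b2r1 and Ad-GFP b2r2. Both interferon lambda genes were listed at 0 throughout.

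Among the receptor subunits, Ifnar1, which with Ifnar2 makes the type I receptor, did not pass, with log2 fold changes of 0.17 (adjusted p = 0.536) in Ad-ATP12A lungs, 0.13 (adjusted p = 0.686) in Ad-GFP lungs and 0.22 (adjusted p = 0.442) in bleomycin lungs. Ifnar2 rose in bleomycin lungs, with 0.25 (SE 0.0771, adjusted p = 0.035), and Ifngr2, a subunit of the interferon gamma receptor, rose in Ad-ATP12A lungs, with 0.54 (SE 0.162, adjusted p = 0.0289), and in bleomycin lungs, with 0.54 (SE 0.162, adjusted p = 0.0348). Ifnar2 in bleomycin lungs lost its call without bleomycin b1r1, b2r1 or b2r2, or control b1r2 or b2r2 (adjusted p between 0.0533 and 0.112). Ifngr2 in Ad-ATP12A lungs lost its call without Ad-ATP12A b2r1 or b2r2, or control b2r2 (adjusted p between 0.0726 and 0.0927). Ifngr2 in bleomycin lungs lost its call without bleomycin b1r1, b1r2 or b2r2, or control b1r2 or b2r2 (adjusted p between 0.0545 and 0.121).

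Upstream of interferon production, 6 of 17 sensors, adaptors and kinases outside the list rose in Ad-ATP12A lungs, 5 in Ad-GFP lungs and 5 in bleomycin lungs. The share of all genes that rose was 13.3%, 9.16% and 13.2% in that order, as for the lists that follow. Sting1, the adaptor for cytosolic DNA, rose on the log2 scale by 1.43 (SE 0.237, adjusted p = 0.00153), 1.05 (SE 0.237, adjusted p = 0.0126) and 1.30 (SE 0.237, adjusted p = 0.00303) in that order, and Cgas, the enzyme that senses that DNA, by 0.63 (SE 0.141, adjusted p = 0.00749), 0.60 (SE 0.141, adjusted p = 0.0149) and 0.63 (SE 0.141, adjusted p = 0.00842). Ikbke, a kinase that activates interferon regulatory factors, rose on the log2 scale by 1.04 (SE 0.16, adjusted p = 0.000942), 0.94 (SE 0.16, adjusted p = 0.00305) and 0.92 (SE 0.16, adjusted p = 0.00236). Cgas in Ad-GFP lungs lost its call without Ad-GFP b1r2 or b2r2 (adjusted p between 0.0529 and 0.0622).

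Negative regulators moved too, in comparisons in which 9.49% of all genes fell in Ad-ATP12A lungs. Of 11, 7 rose in Ad-ATP12A, 3 in Ad-GFP and 5 in bleomycin lungs, and Pias1, an inhibitor of cytokine signalling, fell in Ad-ATP12A lungs by 0.36 (log2 scale, SE 0.115, adjusted p = 0.0372). Socs1, which blocks the JAK kinases, rose in Ad-ATP12A lungs with 0.80 (SE 0.132, adjusted p = 0.00157) and had 0.41 (adjusted p = 0.0545) in Ad-GFP and 0.39 (adjusted p = 0.0566) in bleomycin lungs. Socs3, an inhibitor of cytokine receptors of the gp130 type, rose on the log2 scale by 1.61 (SE 0.304, adjusted p = 0.00314), 1.17 (SE 0.304, adjusted p = 0.0233) and 1.67 (SE 0.304, adjusted p = 0.003) in Ad-ATP12A, Ad-GFP and bleomycin lungs. Pias1 in Ad-ATP12A lungs lost its call without Ad-ATP12A b1r1, b2r1 or b2r2, or control b1r1, b1r2 or b2r1 (adjusted p between 0.0531 and 0.116). Socs3 in Ad-GFP lungs lost its call without Ad-GFP b1r2 or b2r2, or control b1r2 or b2r2 (adjusted p between 0.0515 and 0.0865).

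Of 47 further interferon-induced genes tested, 13 rose in Ad-ATP12A, 8 in Ad-GFP and 10 in bleomycin lungs, and Trim34a fell in Ad-ATP12A lungs. Their median log2 fold changes of 0.23, 0.09 and 0.11 were smaller than those of the 37. Cxcl10, a chemokine that draws activated T cells, rose on the log2 scale by 3.68 (SE 0.439, adjusted p = 0.000173) in Ad-ATP12A, 2.77 (SE 0.439, adjusted p = 0.00195) in Ad-GFP and 3.01 (SE 0.439, adjusted p = 0.000767) in bleomycin lungs. Slfn9, of the Schlafen family, rose on the log2 scale by 1.60 (SE 0.196, adjusted p = 0.000218), 1.43 (SE 0.196, adjusted p = 0.000897) and 1.66 (SE 0.196, adjusted p = 0.000217) in that order. Trim34a in Ad-ATP12A lungs lost its call without Ad-ATP12A b1r2, b2r1 or b2r2, or control b1r1, b1r2 or b2r1 (adjusted p between 0.0682 and 0.116).

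Among 16 GTPases induced chiefly by interferon gamma, 10 rose in Ad-ATP12A lungs, 3 in Ad-GFP lungs and 2 in bleomycin lungs, with medians of 0.92, 0.50 and 0.20; the 2 in bleomycin lungs were near the share of all genes, 13.2%, while that share was 13.3% in Ad-ATP12A and 9.16% in Ad-GFP lungs. Tgtp1 rose on the log2 scale by 3.05 (SE 0.405, adjusted p = 0.000353), 2.23 (SE 0.405, adjusted p = 0.00429) and 1.71 (SE 0.405, adjusted p = 0.0118) in that order. Between the bleomycin-treated groups none of the 16 GTPases passed. Their summed level ranged over 613 to 1170 TPM in Ad-ATP12A, 412 to 1190 TPM in Ad-GFP, 327 to 597 TPM in bleomycin and 325 to 396 TPM in control libraries. In Ad-ATP12A lungs the library that led them was not the one that led the type I genes: b2r1 was highest for 14 of the 16 GTPases and b1r1 for 2, whereas b1r1 was highest for 33 of the 37. In Ad-GFP lungs b2r2 was highest for all 16 GTPases and for 31 of the 37.

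Markers of immune cells moved in the same comparisons, in which 13.3% of all genes rose and 9.49% fell in Ad-ATP12A, 9.16% rose and 4.52% fell in Ad-GFP, and 13.2% rose and 5.61% fell in bleomycin lungs. Of 11 monocyte and interstitial macrophage markers, 6 rose in Ad-ATP12A, 6 in Ad-GFP and 8 in bleomycin lungs, and none fell. Their summed level ranged over 801 to 2860 TPM in Ad-ATP12A, 559 to 2360 TPM in Ad-GFP, 760 to 1590 TPM in bleomycin and 246 to 346 TPM in control libraries, and none was at 0 in every library. Ad-GFP b2r2 was highest for all 11 in its group, and Ad-ATP12A b2r1, not b1r1, for 9 of the 11 in its group. Of 7 tested plasmacytoid dendritic cell markers, none rose and 1 fell, in Ad-ATP12A lungs. Ad-ATP12A b1r1 was highest for 5 of the 7 in its group and Ad-GFP b2r2 for 5 of the 7 in its group. Their summed level was 95.1 to 129 TPM in Ad-ATP12A, 110 to 138 TPM in Ad-GFP, 95.0 to 136 TPM in bleomycin and 124 to 150 TPM in control libraries, and Siglech, the defining marker, was detected in every library, at 0.52 to 11.4 TPM. The highest value of any plasmacytoid dendritic cell marker was 97.3 TPM, so much of that sum can come from a single gene. The part of either cell type in the interferon-stimulated genes was not tested.

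Of 8 T cell markers 6 rose in Ad-ATP12A lungs, and none passed in Ad-GFP or bleomycin lungs. Set directly against Ad-GFP lungs, Ad-ATP12A lungs had 0 of the 8 past the threshold (median log2 fold change 0.64). Against bleomycin lungs the count was 0 as well (median 0.43). Their summed level was 124 to 140 TPM in Ad-ATP12A, 54.2 to 141 TPM in Ad-GFP, 63.0 to 142 TPM in bleomycin and 62.4 to 83.9 TPM in control libraries. Of 6 B cell markers 1 fell in Ad-ATP12A, 4 in Ad-GFP and none in bleomycin lungs. All 6 were highest in Ad-ATP12A b1r1 within that group, the library that led 33 of the 37 genes, with a summed range of 39.9 to 152 TPM in Ad-ATP12A, 37.3 to 73.9 TPM in Ad-GFP, 50.4 to 143 TPM in bleomycin and 128 to 194 TPM in control libraries. Natural killer cell markers gave no rise, and 4 of 7 fell in Ad-ATP12A, 2 in Ad-GFP and none in bleomycin lungs. Neutrophil markers gave no rise either, and 1 of 7 fell in Ad-ATP12A, 2 in Ad-GFP and none in bleomycin lungs. Alveolar macrophage markers were mixed, with none higher and 2 of 9 lower in Ad-ATP12A, and 1 higher and 1 lower in Ad-GFP and in bleomycin lungs. Of 6 fibroblast markers 3 rose in Ad-ATP12A, 3 in Ad-GFP and 4 in bleomycin lungs, and of 6 endothelial markers 6, 2 and 2 fell in that order. The part of these cells in the levels of the 37 genes was not tested either.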

How the data were processed

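RNA in 16 libraries of mouse lung was measured by RNA sequencing; per the labels' protocols it was extracted with RNeasy and 0.6 ug of total RNA entered each library. The authors deposited log2 values, log2(TPM + 1), per Ensembl gene, and the submitters' processing notes name STAR, RSEM and build GRCm39 (mm39). The parameters of those steps and the read depth are not given in the sources used here, so no counting interval could be given. TPM also makes each value depend on the rest of its library.

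Symbols came from GENCODE M21 (build GRCm38), which matched 52093 identifiers and left 1554 unmatched; its transcripts also gave the shared 75-base stretches. Genes that reached 1 TPM in 4 libraries or more were fitted with limma 3.58.1 (R 4.3.3; trended prior, 4 groups, a batch term), and p-values were adjusted by Benjamini-Hochberg over 17003 genes, with a threshold of 0.05. Fold changes on the log2(TPM + 1) scale understate changes of scarce genes. A separate fit with a term for group within batch tested differences between batches. The code was tested on simulated data. Figures used Python 3.11.15 and matplotlib 3.10.9.

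The 37 genes, the other lists and the tests were chosen with earlier results of these data known. All 37 genes are named, and from each other list up to 4 genes with the smallest p among those that passed; Ifnar1, Ifnb1, Ifng, Ifnar2, Ifngr2, Socs1, Pias1, Trim34a, Siglech, Scgb1a1 and Atp12a were named for their role or after their values were seen. Alternatives were other pseudocounts, filters, scalings, designs, batches and single libraries left out; leaving out libraries low in Scgb1a1 and a term for Xist were added after the data were seen. Counts of the receptor and kinase list are not reported here.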

Additional observations from a re-analysis of the deposited data

Results flagged for a closer look

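In 7 of 152 sets of 4 libraries, 1 library lay apart from the other 3 by Dixon's test; chance alone gives about 1 in 20. The 152 sets cover the 37 genes and the summary level in each of 4 groups.

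In Ad-ATP12A lungs Oas2 had 23.13 TPM in b1r1. In Ad-GFP lungs Mx1 had 22.27 TPM and Lgals3bp 316.03 TPM in b2r2, and Ifi35 had 59.96 TPM in b1r1. In each of these 4 the library was the highest of its group. In bleomycin lungs Oasl1 had 3.90 TPM in b2r1, the lowest of its group. In control lungs Oasl1 had 2.27 TPM and Xaf1 52.49 TPM in b2r1, both the highest of the group. Control b2r1 is 1 of the 3 libraries low in Scgb1a1, as is Ad-GFP b1r1.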

How the results depend on the processing

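No gene of the 37 that passed changed direction under any alternative run. Each gene that passed against control lungs was counted once per alternative. Its call was kept in 560 of 627 such values in Ad-ATP12A, 281 of 359 in Ad-GFP and 378 of 477 in bleomycin lungs. These values are not independent, since many alternatives leave out only 1 library. No alternative made a gene of the 37 pass between the bleomycin-treated groups. The main counts were 21 in Ad-ATP12A, 12 in Ad-GFP and 16 in bleomycin lungs against control lungs, and 2 between batches. Leaving out 1 library gave 16 to 24, 4 to 17, 7 to 20 and 0 to 3 in that order, and 0 to 2 for the Ad-ATP12A difference between batches.

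Without the filter on low values the counts were 6 in Ad-GFP, 9 in bleomycin and 0 between batches, where more genes entered the adjustment. Fitting the compared groups alone gave 6 in Ad-GFP. Batch 2 alone gave 3 in Ad-ATP12A and 0 in Ad-GFP and in bleomycin. In batch 1 alone, with as many libraries, 25, 11 and 15 rose in that order, and 1 fell in Ad-GFP. Weighting libraries by their quality gave 20 in Ad-GFP, 26 in bleomycin and 4 between batches. Without the libraries low in Scgb1a1 the counts were 7, 7 and 0. Between batches, quantile normalization gave 0, median-ratio scaling 1 and the Xist term 1; the 1 under median-ratio scaling was neither Ifih1 nor Parp14 and was lower in batch 2. Where no construction explains it, the cause was not tested.

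With the replicate number as a replicate block the counts were 21, 11, 14 and 1. The labels do not say that replicate numbers pair libraries, and correlations of same-numbered deviations ran from −0.158 to 0.212. With 2 libraries per group and batch the deviations mirror one another, so these correlations cannot settle whether libraries were paired. Depth is unknown, so no floor could be set for genes listed at 0.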
